A study of Mus musculus with 6 samples.

Results

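Long-chain acyl-CoA synthetases and fatty acid uptake genes were followed in MC38 and MC38r cells. The set comprised 10 genes chosen by name, which the array lists as ACSL1, ACSL3, ACSL4, ACSL5, ACSL6, SLC27A1, SLC27A4, FABP5, VLDLR and MFSD2 (now Mfsd2a). All probes that carried these names were taken, which gave 26 of the 45281 probes on the array. MC38 cells are mouse colorectal cancer cells sensitive to EPA (eicosapentaenoic acid, a long-chain fatty acid of the omega-3 series). MC38r is their resistant counterpart, whose IC50 was 6-fold higher once the cells had been kept in EPA. The culture of both lines was the same per the labels (RPMI medium, foetal calf serum, flasks at 70% confluence), with no other agent and no allele named, and RNA of each was hybridised to 3 Illumina bead arrays. With 1 line of each kind, resistance and other differences between the lines cannot be told apart.

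Fatty acids that enter a cell are first coupled to coenzyme A, and only the acyl-CoA can be oxidised, elongated or built into phospholipids and triglycerides. The ACSL enzymes do this for long chains, and they differ in the chains they prefer and in where they sit in the cell. SLC27 proteins (fatty acid transport proteins) join uptake to the same reaction, FABP proteins carry free fatty acids in the cytosol, the VLDL receptor takes up triglyceride-rich lipoproteins, and MFSD2A carries lysophosphatidylcholine with an omega-3 chain across the plasma membrane.

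The 250 bases before the RefSeq start of Vldlr and of Mfsd2a, the genes with the largest rise and the largest fall among the 10, are shown beside those of Acsl3, whose difference did not pass the test. They were read from RefSeq (GRCm38.p6), with capitals on letters that match a searched motif on either strand. The windows are Vldlr at chr19:27216234-27216483 (+ strand, the more distal of its starts), Mfsd2a at chr4:122961189-122961438 (- strand) and Acsl3 at chr1:78657575-78657824 (+ strand).
Vldlr: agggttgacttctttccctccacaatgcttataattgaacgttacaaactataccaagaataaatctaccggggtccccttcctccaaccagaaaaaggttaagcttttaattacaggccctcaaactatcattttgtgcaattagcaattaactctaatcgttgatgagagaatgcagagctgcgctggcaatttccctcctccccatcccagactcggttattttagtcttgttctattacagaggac
Mfsd2a: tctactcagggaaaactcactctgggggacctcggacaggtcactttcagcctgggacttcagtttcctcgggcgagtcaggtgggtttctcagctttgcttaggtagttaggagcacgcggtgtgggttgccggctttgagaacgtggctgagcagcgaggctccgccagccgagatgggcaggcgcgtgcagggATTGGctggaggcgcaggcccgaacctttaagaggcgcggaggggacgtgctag
Acsl3: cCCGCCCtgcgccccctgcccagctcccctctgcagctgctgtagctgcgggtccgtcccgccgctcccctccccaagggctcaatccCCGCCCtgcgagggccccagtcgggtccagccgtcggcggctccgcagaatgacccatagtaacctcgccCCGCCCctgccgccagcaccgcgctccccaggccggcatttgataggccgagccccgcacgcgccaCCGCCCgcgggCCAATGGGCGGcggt
The motifs searched were the GC box GGGCGG, the CCAAT box CCAAT, the sterol regulatory element TCACNCCAC, the E-box CACGTG, the TATA box TATAAA and the PPAR element (AGGTCA repeated after 1 free base), none of which contains another. The Vldlr window held none of them, the Mfsd2a window held 1 CCAAT box, and the Acsl3 window held 5 GC boxes and 1 CCAAT box. GC content was 41.6% for Vldlr, 61.6% for Mfsd2a and 75.6% for Acsl3, where the median of 32807 such windows was 52.4%. The nearer start of Vldlr (chr19:27216770-27217019) had a GC content of 66.4%, with 1 GC box and 1 CCAAT box. Of 15 windows matched to 9 of the 10 genes (all but Fabp5), 10 held a GC box and 9 a CCAAT box, against 32.7% and 33.8% of all windows. A sterol regulatory element was found in 1 window, the more internal start of Acsl1 (1.05% of all windows), an E-box in 1 window of Slc27a1 (6.02%), and neither a TATA box (12.4%) nor the PPAR element (0.0335%) in any. These matches describe letters in the windows alone.

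The share of probes above background was 28.3% to 30.5% per array, at a median of 44 beads a probe. All arrays shared 1 chip, on which MC38 took the first sections and MC38r the last ones, and so the effect of position cannot be told apart from that of the line. Housekeeping control signals were 11552 to 12858 on the MC38 arrays and 10271 to 10673 on the MC38r arrays. Among the MC38 arrays replicate 2 deviated from its line together with replicate 1 of MC38r (correlation of the deviations 0.62 over the tested probes, given as a description). The epithelial markers Epcam, Cdh1, Krt18, Krt19 and Vil1 were above background on no array, as were 11 of 14 epithelial markers in all, and Cdx2 was above background on the MC38r arrays alone. Of 10 mesenchymal markers 8 were tested, 2 rose and 5 fell (87.5% passed, against 55.8% of all genes, 28.6% upward and 27.3% downward). The log2 of their summed signal was 14 to 14.25 on the MC38 arrays and 12.01 to 12.03 on the MC38r arrays. That sum, taken on the linear scale, rests mostly on Vim (13.53 ± 0.13 to 11.74 ± 0.02) and, in MC38, on Acta2 (12.44 ± 0.13 to 6.03 ± 0.28). The markers that rose were Pdgfra (1.09) and Dcn (0.82), and Col1a1 did not pass (-0.19). Adipocyte, endothelial and leukocyte markers were mostly at background: 7 of 8, 5 of 6 and 7 of 9 on the array were above background on no array, Adipoq, Plin1, Pecam1, Ptprc and Csf1r among them. Of the other leukocyte markers Cd14 rose (7.28 ± 0.09 to 7.71 ± 0.03) and Cd68 fell as fitted (5.81 ± 0.16 to 5.17 ± 0.14). Cd68 was above background on only 1 MC38r array and entered the test through MC38. The part of the cell type markers, of chip position and of control signals in the results below was not tested.

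Values below are normalized log2 signals, with means ± SD over the 3 arrays of a line, and a change is MC38r minus MC38. A probe was tested where its detection p was under 0.01 (above background) on 3 or more arrays of 6, and it passed where the Benjamini-Hochberg adjusted p of limma over all 13990 tested probes was under 0.05. Of the 26 probes 17 were tested, for 9 of the 10 genes, and 8 probes were above background on no array. Of the 17, 8 rose and 4 fell (70.6% in all), 12 did not overlap between the lines, and 6 both passed and differed at least 2-fold as fitted, 1 of which (Vldlr probe 1260347) has a bound of 1.52-fold only. Over all tested probes 55.1% passed, 28.1% upward and 27% downward, 61.5% did not overlap and 22.9% passed at 2-fold or more as fitted, so that much of the array differed between the lines. Several probes read 1 gene, 5 of the 12 that passed being of Vldlr, and counted by the brightest probe of each gene 6 of 9 passed, 3 in each direction, against 55.8% of all genes (28.6% upward and 27.3% downward). The median change was 0.33 over the 17 probes, 0.09 over the 9 genes by their brightest probe and 0.03 over all tested probes. Among the 17, 5 probes (2 of Vldlr and 1 each of Acsl4, Acsl6 and Slc27a4) were measured on every array of 1 line but not throughout the other, and they entered the test through the line in which they are high.

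**Figure D1:**
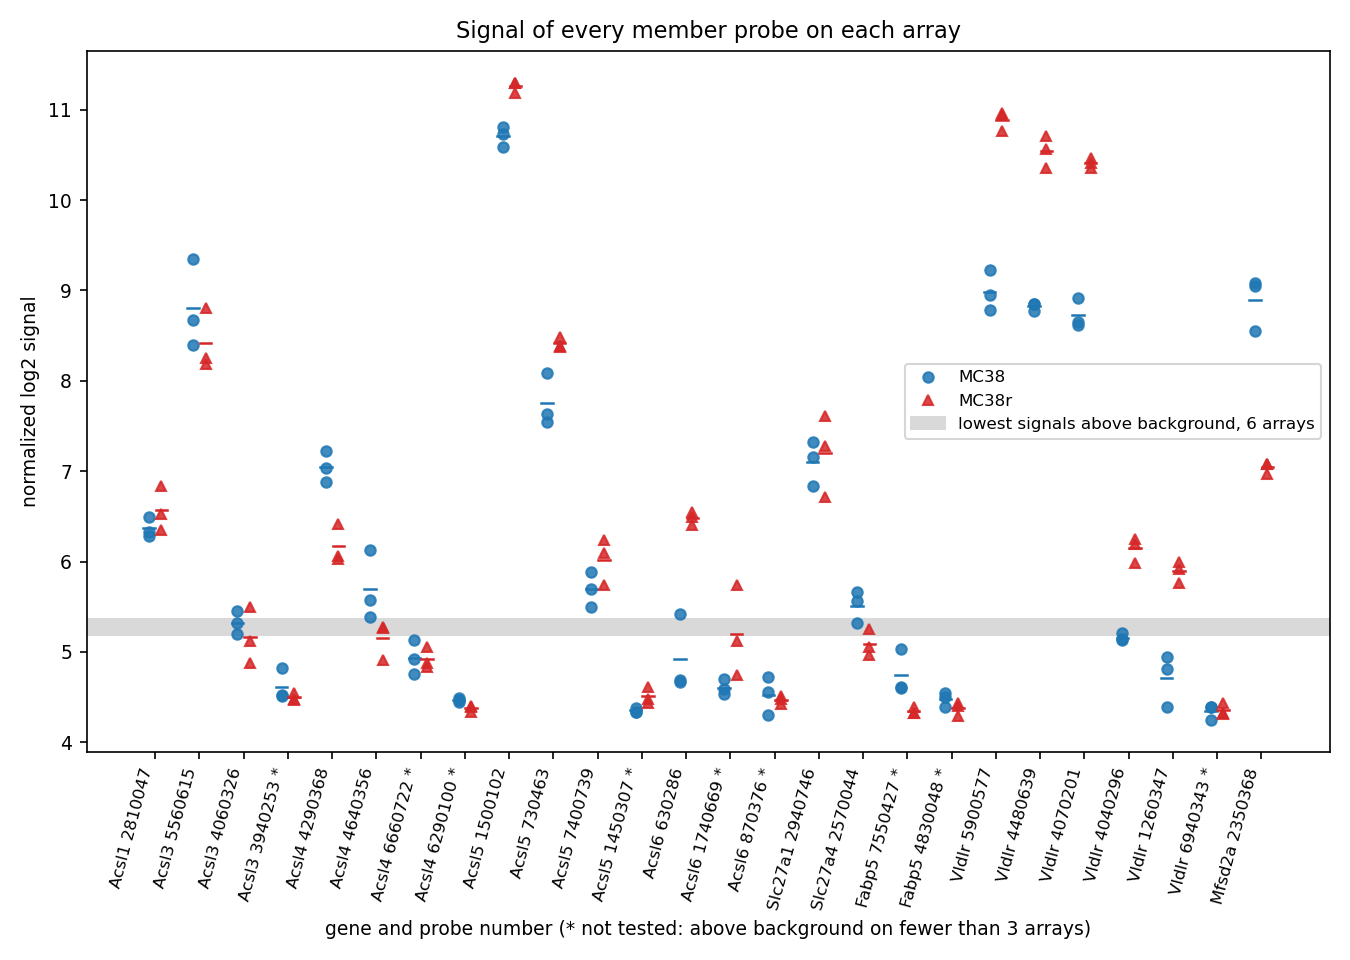
Normalized log2 signal (vertical axis) of all 26 probes of the 10 genes (horizontal axis) on each MC38 array (circles) and MC38r array (triangles), with short lines at the mean of each line. The grey band spans the lowest signals called above background on the 6 arrays, and the lines are far apart for 3 Vldlr probes and for Mfsd2a, whereas both Fabp5 probes lie below the band.

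Among the uptake genes of the set of 10, Vldlr and Mfsd2a differed most, in opposite directions. Vldlr, which binds lipoproteins that carry apolipoprotein E and is also a receptor for reelin, read 8.78, 9.23 and 8.95 on the MC38 arrays and 10.76, 10.94 and 10.96 on the MC38r arrays by its brightest probe (5900577). Every MC38r array was above every MC38 array. The rise was 3.74-fold, or 1.9 on the log2 scale (95% confidence interval 1.56 to 2.24, adjusted p = 7.1e-06). Probe 4480639 went from 8.82 ± 0.05 to 10.54 ± 0.18 (3.29-fold, adjusted p = 7.1e-06). Probe 4070201 went from 8.73 ± 0.17 to 10.41 ± 0.06 (3.21-fold, adjusted p = 7.2e-06). The log2 changes of these probes, 1.68 to 1.9, lay within each other's intervals.

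The remaining Vldlr probes were dim. Probe 4040296 (5.16 ± 0.04 in MC38, 6.15 ± 0.14 in MC38r) and probe 1260347 (4.71 ± 0.29, 5.89 ± 0.12) were measured above background in MC38r alone, on all 3 of its arrays. Against the lowest signal above background they were at least 1.82-fold and at least 1.52-fold higher in MC38r. Their fitted changes had adjusted p-values of 0.00018 and 0.00028, both probes having entered the test through MC38r. With signals held at the lowest one above background the adjusted p-values were 0.00039 and 0.0025. Every MC38 value is then that limit itself, so the direction was fixed in advance and these p-values are no check on the rise. The remaining probe, 6940343, was above background on no array. On each array between 26 and 52 beads stood behind each of the 3 bright probes, with a standard error over the beads of 5.16% to 10.9% of the signal.

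Mfsd2a, which in mice delivers docosahexaenoic acid to the brain, had 1 probe. It read 9.05, 8.55 and 9.08 on the MC38 arrays and 6.97, 7.08 and 7.08 on the MC38r arrays. The lowest MC38 array, replicate 2, still stood above every MC38r array. The fall was 3.61-fold, or -1.85 on the log2 scale (95% confidence interval -2.22 to -1.48, adjusted p = 1.5e-05). Of all tested probes 92.7% had a smaller change in size than this probe, and 93% a smaller one than the brightest Vldlr probe.

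Of the fatty acid transport protein genes, Slc27a1 did not pass and Slc27a4 fell near background. Slc27a1, whose protein takes up fatty acids in muscle and fat in response to insulin, read 6.84, 7.32 and 7.16 on the MC38 arrays and 7.61, 6.71 and 7.28 on the MC38r arrays. The lines overlapped, and the change of 0.09 did not pass (95% confidence interval -0.43 to 0.61, adjusted p = 0.76). Slc27a4, the family member of the small intestine, read 5.66, 5.56 and 5.32 on the MC38 arrays and 5.25, 5.05 and 4.97 on the MC38r arrays, where it was above background on 1 of 3. It fell 1.34-fold as fitted (-0.42, 95% confidence interval -0.75 to -0.1, adjusted p = 0.032). That call was lost without any 1 of MC38 replicates 1 and 2 and MC38r replicates 2 and 3 (-0.41 to -0.35, adjusted p = 0.054 to 0.12).

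Fabp5, which carries long-chain fatty acids to nuclear receptors, was not above background on any array by either probe. Its deposited signals were -12.4 to 16.2 for probe 7550427 and -15 to 1.4 for probe 4830048, where values near 0 are background. Since no level was measured in either line, no change is given. The authors' deposited table nonetheless lists Fabp5 with a ratio of 0.66 of MC38r over MC38 (adjusted p = 0.2).

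The long-chain acyl-CoA synthetases moved in different directions: Acsl5 and Acsl6 rose, Acsl4 fell, and Acsl1 and Acsl3 did not pass. Acsl4, the isoform that in rat prefers arachidonic acid and EPA and that promotes ferroptosis, had 4 probes. The brightest (4290368) read 7.04, 6.88 and 7.22 on the MC38 arrays and 6.06, 6.03 and 6.42 on the MC38r arrays, without overlap. It fell 1.83-fold (-0.87 on the log2 scale, 95% confidence interval -1.23 to -0.52, adjusted p = 0.0013).

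A dimmer Acsl4 probe (4640356) read 6.13, 5.58 and 5.39 on the MC38 arrays and 4.91, 5.28 and 5.27 on the MC38r arrays, 1 of which was above background. Its fall of 1.46-fold as fitted (adjusted p = 0.047) was lost without MC38 replicate 1 (-0.33, adjusted p = 0.16) or without MC38r replicate 1 (-0.42, 0.14), 2 (-0.61, 0.069) or 3 (-0.6, 0.075). Both other Acsl4 probes were above background on no array. With the deposited series values, which average all probes of a gene, the Acsl4 change was -0.48 (adjusted p = 0.02), and with an offset of 50 in place of 16 the brightest probe stood at -0.64 (adjusted p = 0.0016).

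Acsl5, a synthetase of mitochondria and endoplasmic reticulum that is abundant in intestine, rose moderately. Its brightest probe (1500102) read 10.81, 10.59 and 10.73 on the MC38 arrays and 11.19, 11.3 and 11.3 on the MC38r arrays. The lines did not overlap, and the rise was 1.47-fold (0.55 on the log2 scale, 95% confidence interval 0.27 to 0.84, adjusted p = 0.0048). Probe 730463 went from 7.76 ± 0.29 to 8.41 ± 0.05, a rise of 1.58-fold (adjusted p = 0.0073). Probe 7400739 stood at 5.69 ± 0.19 and 6.02 ± 0.26 and did not pass (0.33, 95% confidence interval -0.05 to 0.71, adjusted p = 0.13), although it did without MC38r replicate 1 (0.48, adjusted p = 0.038) and without both that array and MC38 replicate 2 (0.38, adjusted p = 0.037). The intervals of all 3 probes overlap, and the remaining probe, 1450307, was above background on no array.

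Acsl6, the isoform best known in brain, where it retains docosahexaenoic acid in mice, was measured mainly in MC38r. Probe 630286 read 4.69, 5.42 and 4.67 on the MC38 arrays, 1 of which was above background, and 6.49, 6.4 and 6.55 on the MC38r arrays. The rise was 2.94-fold as fitted (1.55 on the log2 scale, 95% confidence interval 1.1 to 2.01, adjusted p = 0.00017). The probe entered the test through MC38r. With signals held at the lowest one above background the rise was 1.13 (adjusted p = 4.6e-05). MC38 arrays at background then take that limit as their value, which narrows their spread, so this p-value is no check on the fitted one. With an offset of 50 the rise was 0.93 (adjusted p = 0.00022), and by the deposited series values 0.75 (adjusted p = 0.0014). A further Acsl6 probe (1740669), not tested, read 4.59, 4.53 and 4.7 on the MC38 arrays and 5.74, 5.12 and 4.74 on the MC38r arrays, and was above background on 1 MC38r array. The third probe was above background on no array.

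Acsl1, the main isoform of fat, heart and liver, read 6.33, 6.49 and 6.28 on the MC38 arrays and 6.84, 6.35 and 6.53 on the MC38r arrays. The lines overlapped, and the change of 0.21 did not pass (95% confidence interval -0.14 to 0.56, adjusted p = 0.29). Acsl3, the isoform of nascent lipid droplets, had the widest spread in MC38 among the 9 genes by their brightest probes, 0.95 between its lowest and highest array. Its brightest probe (5560615) read 8.67, 9.35 and 8.4 on the MC38 arrays and 8.81, 8.25 and 8.19 on the MC38r arrays. The change of -0.39 did not pass (95% confidence interval -0.97 to 0.19, adjusted p = 0.22), and it was -0.12 without MC38 replicate 2 (adjusted p = 0.63). A dimmer Acsl3 probe stood at 5.32 ± 0.13 and 5.17 ± 0.31 (adjusted p = 0.48), and the third was above background on no array. For Acsl1, Acsl3 and Slc27a1 alike, replicate 2 was the highest array of MC38 and replicate 1 the highest of MC38r, which are the 2 arrays that deviated together. Without both, the changes of Acsl3 (-0.32, adjusted p = 0.08) and of the brightest Acsl4 probe (-0.9, adjusted p = 0.0021) kept their side of the threshold.

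**Figure D2:**
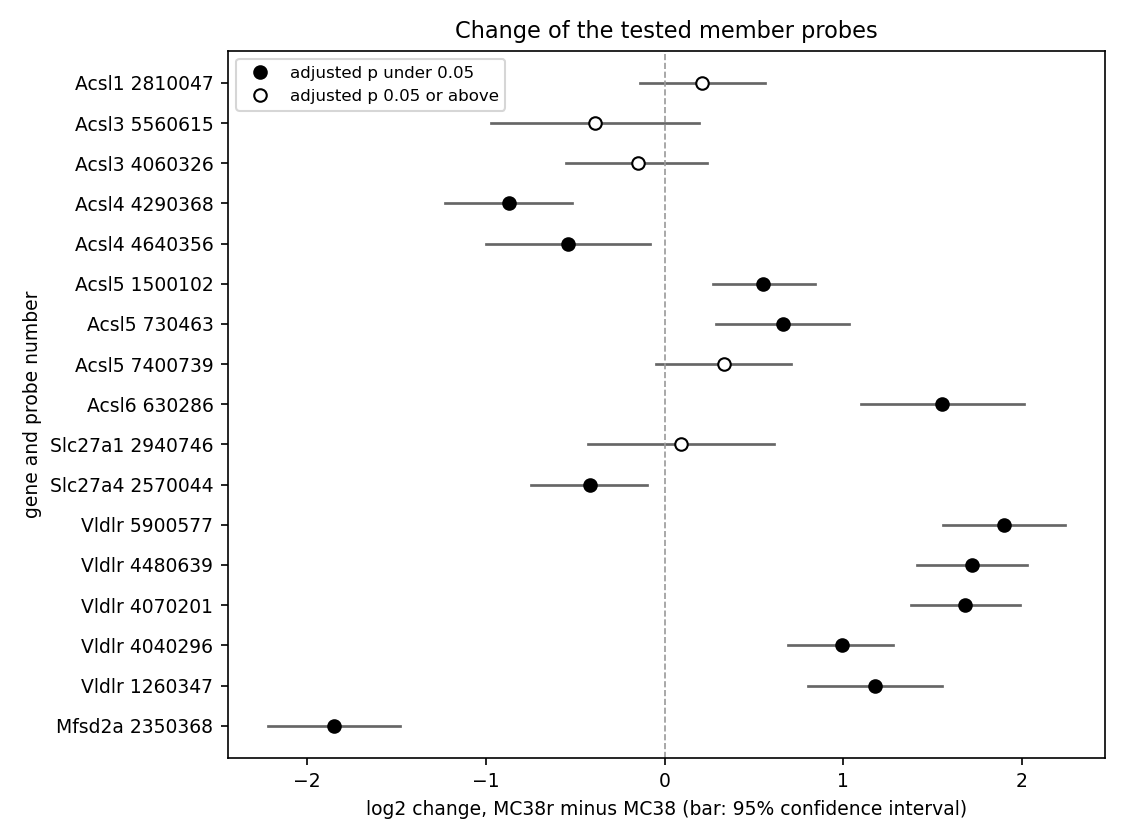
Log2 change of MC38r over MC38 (horizontal axis) for the 17 tested probes (vertical axis), with bars for the 95% confidence interval and filled points where the adjusted p was under 0.05. The 5 Vldlr probes, the Acsl6 probe and all 3 tested Acsl5 probes lie to the right of 0 (the interval of Acsl5 probe 7400739 reaches across it), and Mfsd2a, both Acsl4 probes and Slc27a4 to the left.

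The authors' deposited table, which stops at an unadjusted p of 0.05, lists 7 of the 10 genes at the level of genes. It gives a ratio of 3.21 for Vldlr (adjusted p = 0.0093), 1.46 for Acsl5 (adjusted p = 0.022) and 0.72 for Acsl4 (adjusted p = 0.047). In the same deposited table Mfsd2a has a ratio of 0.299 (adjusted p = 0.15), Acsl6 of 1.69 (adjusted p = 0.12) and Slc27a4 of 0.804 (adjusted p = 0.2). The directions are those of the probes above. Acsl1, Acsl3 and Slc27a1 are not listed in the authors' deposited table.

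Few other acyl-CoA synthetases were measured. Of 17 on the array, 12 were above background on no array, among them Slc27a2, Slc27a3 and Slc27a5, and 3 were tested, of which 2 fell and none rose (66.7% passed, against 55.8% of all genes, and 27.3% of all genes fell), with a median change of -1.1 against 0.03 over all tested probes. Acss2, which activates acetate in cytosol and nucleus, read 7.6, 7.14 and 7.4 on the MC38 arrays and 5.71, 6.03 and 5.68 on the MC38r arrays, a fall of 2.98-fold (adjusted p = 4.1e-05). Aacs, which activates acetoacetate for lipid synthesis, went from 10.68 ± 0.25 to 9.58 ± 0.12, a fall of 2.14-fold (adjusted p = 0.00032). The Acsbg1 probe stood at 5.32 ± 0.16 and 5.24 ± 0.18 and did not pass (adjusted p = 0.67).

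Of 28 further genes of fatty acid and lipoprotein uptake, 11 were tested, 2 rose, 5 fell and 4 did not pass (63.6% passed, against 55.8% of all genes), with a median change of -0.39 against 0.03 over all tested probes. The lipoprotein receptor genes Lrp2 and Lrp8 fell, where Vldlr rose. Only 1 probe of each was tested, of 4 for Lrp2 and 5 for Lrp8. By the deposited series values the changes were -0.99 for Lrp2 (adjusted p = 0.00034) and -0.94 for Lrp8 (adjusted p = 0.00027). Lrp2 (megalin), a large endocytic receptor, read 7.02, 7.1 and 6.87 on the MC38 arrays and was above background on no MC38r array (4.64 ± 0.08), at least 3.38-fold lower. It entered the test through MC38, and its fitted change had an adjusted p of 5.7e-07. With signals held at the lowest one above background the adjusted p was 3.5e-06. Every MC38r value of Lrp2 is then that limit itself, so the direction was fixed in advance and this p-value is no check on the fall. Lrp8, which like Vldlr binds reelin and apolipoprotein E, read 8.64, 8.84 and 8.72 on the MC38 arrays and 7.27, 7.32 and 7.26 on the MC38r arrays, a fall of 2.73-fold (95% confidence interval on the log2 scale -1.73 to -1.17, adjusted p = 1.1e-05), so that the intervals of Lrp8 and Vldlr lie on opposite sides of 0. Angptl4, a secreted inhibitor of lipoprotein lipase, fell 3.05-fold (7.71 ± 0.37 to 6.1 ± 0.18, adjusted p = 0.00012). Cav1, the coat protein of caveolae, rose 1.81-fold (11.01 ± 0.19 to 11.87 ± 0.18, adjusted p = 0.0013). Got2 (-0.39, adjusted p = 0.064), the short-chain fatty acid receptor Ffar3 (-0.36, adjusted p = 0.1) and Scarb2 (0.34, adjusted p = 0.053) did not pass. The fatty acid translocase gene Cd36, Lpl and the omega-3 receptor gene Ffar4 were above background on no array.

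Among the intracellular carriers 8 of 20 genes were tested, 3 rose and 4 fell (87.5% passed, against 55.8% of all genes), with a median change of -0.21. The fatty acid binding proteins Fabp1 to Fabp4, Fabp6 and Fabp7 were, like Fabp5, above background on no array. Of the proteins that bind acyl-CoA, Acbd4, found on peroxisomes in human cells, rose 3.54-fold (7.9 ± 0.06 to 9.72 ± 0.31, adjusted p = 1.9e-05), and a second probe of it changed by 1.83. Dbi, the main cytosolic acyl-CoA binding protein, fell 2.14-fold (13.79 ± 0.08 to 12.69 ± 0.1, adjusted p = 8.2e-05), with further probes at -1.33 and -0.45. Scp2, a carrier of sterols and acyl-CoA with a thiolase form, fell 1.76-fold (10.63 ± 0.18 to 9.81 ± 0.03, adjusted p = 0.00078), and while a second probe fell by 0.79 (adjusted p = 0.0017), a dimmer one stood at 0.08 (adjusted p = 0.65). Crabp1, a retinoic acid carrier of the same protein family as the FABPs, fell 2.45-fold (7.99 ± 0.47 to 6.69 ± 0.25, adjusted p = 0.0013). Acbd5 did not pass (0.13, adjusted p = 0.61). With 1 array left out 4 to 6 carriers passed in place of 7, the count being 4 without MC38 replicate 2 or MC38r replicate 2.

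**Figure D3:**
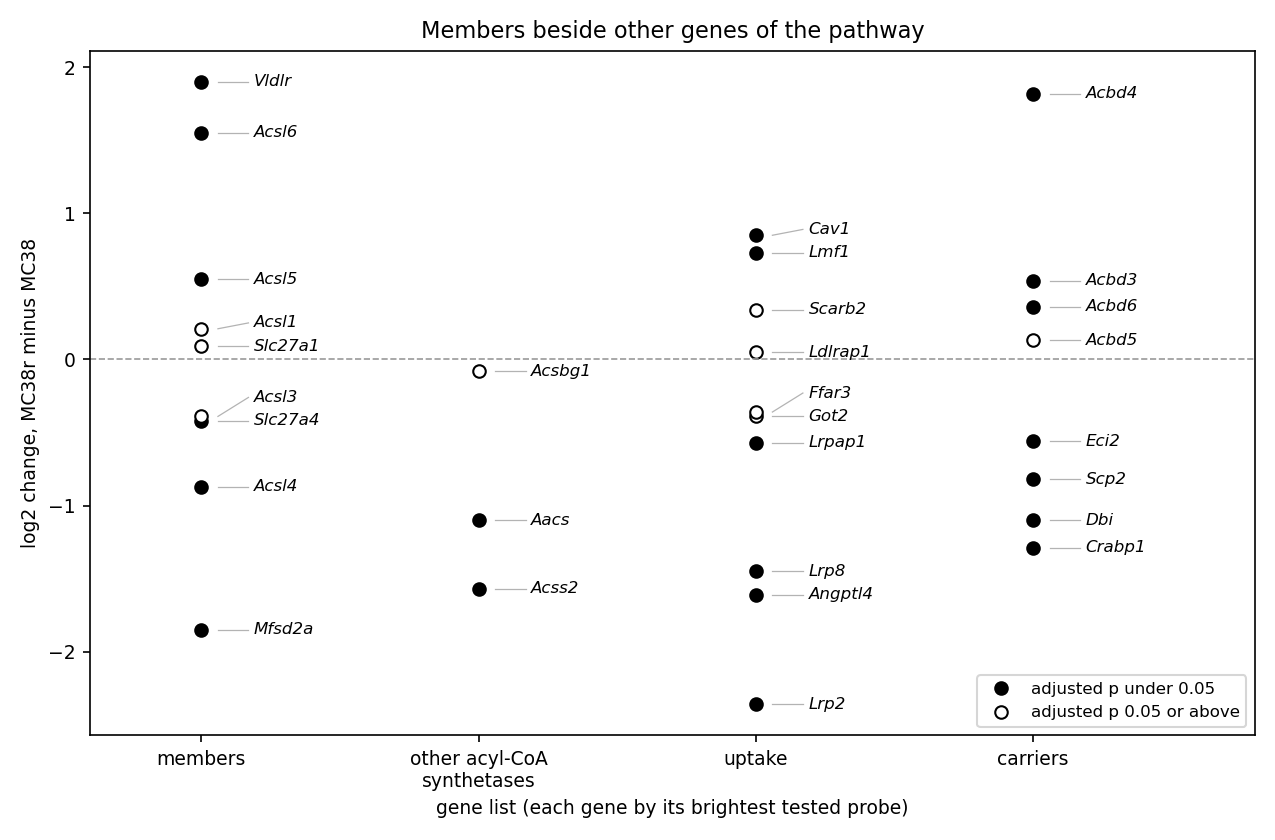
Log2 change of MC38r over MC38 (vertical axis) for tested genes, by their brightest tested probe, in 4 groups: the 9 tested genes of the set, 3 other acyl-CoA synthetases, 10 of 11 uptake genes and 8 carriers (horizontal axis). Filled points passed the test, and each group but the other synthetases holds changes in both directions, from Lrp2 at -2.36 to Vldlr at 1.9.

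Under the other settings tried, Vldlr, Mfsd2a and the brightest probes of Acsl4, Acsl5 and Acsl6 kept their direction and passed wherever they were tested. Over all settings the log2 change ranged from 1.69 to 2.09 for Vldlr and from -2.02 to -1.62 for Mfsd2a. The ranges were 0.49 to 0.6 for Acsl5, -1.05 to -0.48 for Acsl4 and 0.75 to 1.8 for Acsl6. These are values of the brightest probe, except in 1 setting, the deposited series values, which average all probes of a gene. That setting gave the ends nearest 0 for Vldlr, Acsl4 and Acsl6 (1.69, -0.48 and 0.75). With an offset of 50 the brightest probes of these genes stood at 1.83, -0.64 and 0.93. Leaving out any 1 array gave adjusted p-values of 2.7e-06 to 0.00011 for Vldlr, 1.7e-06 to 0.00018 for Mfsd2a, 0.0092 to 0.023 for Acsl5, 0.00088 to 0.0077 for Acsl4 and 3.8e-06 to 0.0015 for Acsl6. The Slc27a1 value changed sign between settings, from -0.11 to 0.34, and passed in none of them.

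**Figure D4:**
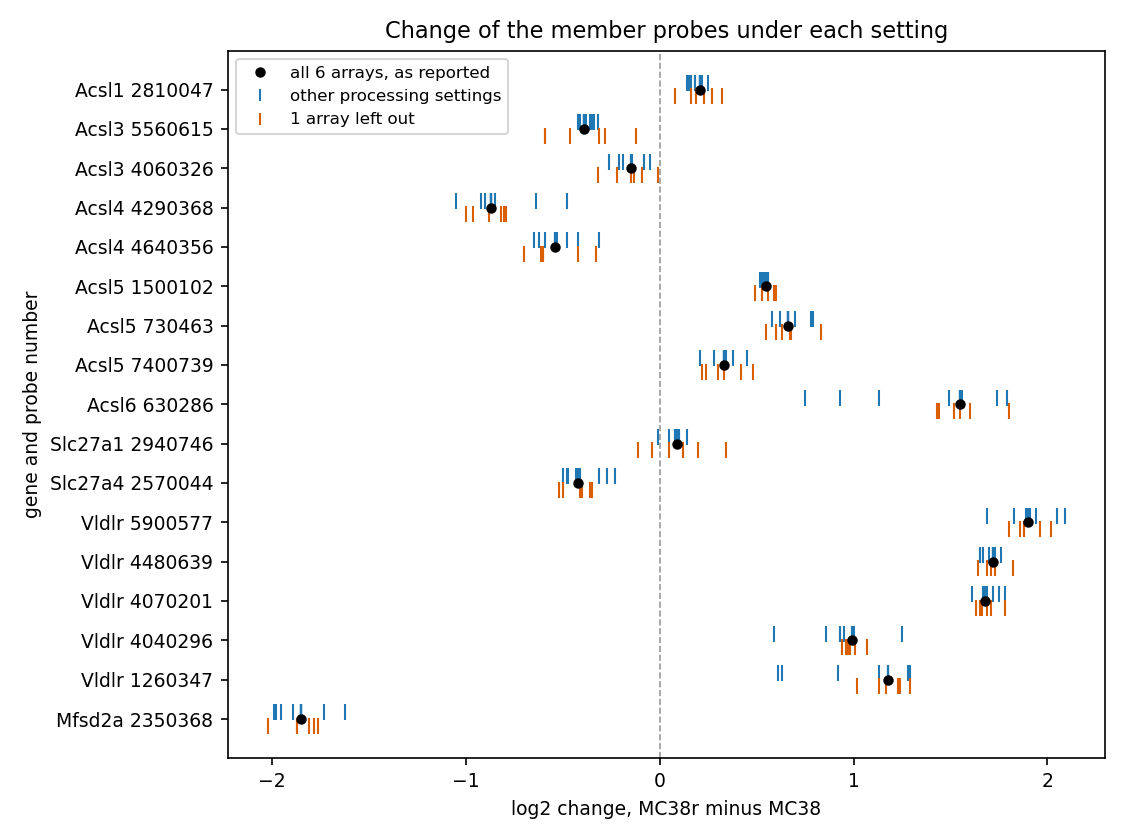
Log2 change of MC38r over MC38 (horizontal axis) of the 17 tested probes (vertical axis) with all 6 arrays (points), with 1 array left out (lower ticks) and under the other settings, including the omission of both arrays that deviated together (upper ticks). Every Vldlr, Acsl6 and Acsl5 tick lies to the right of 0 and every Mfsd2a, Acsl4 and Slc27a4 tick to the left, whereas the Slc27a1 ticks lie on both sides. The upper ticks of each gene's brightest probe include the deposited series value, which averages all probes of the gene.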

How the data were processed

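The probe table came from GenomeStudio 1.9.0, which the authors had set to quantile normalization, per the file headers. Its deposited signals are intensity on a linear scale, of which 35% to 35.1% per array are below 0, so background had been subtracted. The deposited detection score is 1 minus the detection p-value. The deposited control values are intensity too. The deposited series values are gene intensity. The authors' deposited comparison gives a ratio (fold), its log2 value and p-values, and its test is not stated. An aligner or genome build is not given in the sources used here.

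Probe signals were corrected with normexp (nec of limma 3.58.1, R 4.3.3, offset 16, background taken from the detection p-values), log2 transformed and quantile normalized. Probes above background (detection p under 0.01) on 3 or more arrays entered limma's lmFit and eBayes with the line as sole term, a step tested on simulated data. Benjamini-Hochberg adjustment ran over all 13990 tested probes. "At least" folds set the bright line against the lowest signal above background (5.19 to 5.36) and hold for the offset of 16. List genes are represented by their brightest tested probe, and array names were matched by symbol or older symbol (RefSeq, GRCm38.p6). Named list genes are the 4 largest that passed and the 3 largest that did not. The 10 genes, the lists and the omission of 2 arrays together were chosen with earlier results of these data known. The labels do not say whether replicates were separate cultures, so p-values measure only their spread, which may be technical. In RNA of whole cultures, fewer cells that express a gene and less RNA per cell cannot be told apart. Alternatives covered background, offset, normalization, filter, probe choice, deposited series values, replicate block, variance model, array weights and omitted arrays. One alternative, holding signals at the lowest one above background, was chosen after seeing the data. The values of 1 uptake gene are not reported here.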

Additional observations from a re-analysis of the deposited data

How the results depend on the processing

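Of 583 alternative values of the tested probes and named genes, 544 kept their direction and side of the threshold, 21 no longer passed, 13 newly passed and 5 changed sign, none of which passed before or after. The last were Slc27a1 (-0.11 to 0.34 with 1 array left out, -0.01 without both MC38 replicate 2 and MC38r replicate 1), Acsbg1 (-0.18 to 0.01 with 1 array left out) and Acbd5 (-0.02 to 0.31); the cause was not tested. The losses were the dimmer Acsl4 probe (11 of 16 alternatives, -0.7 to -0.31 over all settings) and Slc27a4 (10 of 18, -0.52 to -0.23). The gains were Got2 and Scarb2 (5 each), the dimmest tested Acsl5 probe (2) and Ffar3 (1). The count of probes of the 10 genes that passed, 12 of 17, was 7 of 11 when all 6 arrays had to be above background. Counted by genes it was 6 of 9 with the brightest probe and 6 of 10 with the deposited series values, each with fewer features of the set than the 17 probes. These were not the same 6 genes. With the deposited series values Slc27a4 was lost (-0.31, adjusted p = 0.15), and Fabp5, above background on no array, was counted as a fall. With 1 array left out 10 to 12 probes of the set passed, and the count of all probes was 6728 to 8066. The count of carriers fell from 7 to 4 with the replicate block, and was 4 to 6 with 1 array left out; the cause was not tested. With the replicate block 10 probes of the set passed, and of the named values the dimmer Acsl4 probe (adjusted p = 0.093) and Slc27a4 (adjusted p = 0.051) were lost. The deviations of same-numbered arrays correlated at -0.46 and -0.44 for replicates 1 and 2 and at 0.3 for replicate 3, so the numbers were not taken to pair the samples. Probes near background limit what can be read: for 9 of the 26 probes no test was made.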
